A study of Mus musculus with 6 samples.

Results

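Genes of antioxidant defence and of the NRF2 pathway were examined in RNA-seq data of adult mouse cardiomyocytes (CMs) with and without *Cpt1b*. The 41 members were taken by gene symbol from the 16448 genes of the deposited table. All 41 were found, and all 41 were among the 11364 genes with enough signal for testing. They comprise the regulators of the NRF2 pathway and the enzymes that handle quinones, haem, glutathione, thioredoxin, superoxide, peroxides and oxidized methionine.

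NRF2, encoded by *Nfe2l2*, is a transcription factor that KEAP1 keeps low by feeding it to a cullin-3 ubiquitin ligase. Oxidants and electrophiles modify KEAP1, and NRF2 then accumulates and binds antioxidant response elements of genes for glutathione synthesis, thioredoxin reduction and quinone detoxification. In heart muscle, where mitochondria are dense, superoxide dismutases turn superoxide into hydrogen peroxide, which catalase, peroxiredoxins and glutathione peroxidases remove. Thioredoxin and glutathione, both kept reduced with NADPH, supply the electrons for the latter enzymes.

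The compared groups were 3 CtrlCre samples and 3 Cpt1bcKO samples of isolated adult CMs, from C57BL/6 mice aged 8 to 12 weeks. Mice of both groups carried the αMHC-Cre driver, also named Myh6-Cre, which is active in CMs from the embryo onwards. CtrlCre mice had wild-type *Cpt1b* alleles (Cpt1b+/+), and Cpt1bcKO mice had floxed alleles (Cpt1b fl/fl), so that the gene for the enzyme that loads long-chain fatty acids onto carnitine was inactivated in CMs before birth. No treatment was given. The labels number the samples 1 to 3 in each group, and each was taken as a separate mouse, as the study describes its biological replicates.

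Total RNA was sequenced, and the values are normalized counts, that is, whole numbers made from the reads per gene by dividing them by sample-specific factors. They summed to between 13393411 and 31722217 per sample, and to between 3146414 and 3551692 without mitochondrial-encoded and rRNA genes. The mitochondrial rRNA *mt-Rnr2* made up 63.2% to 64.6% of the sum in CtrlCre samples, against 61.8%, 72.6% and 80.8% in Cpt1bcKO samples 1, 2 and 3. *Cpt1b* itself was at 211, 353 and 285 normalized counts in Cpt1bcKO samples 1, 2 and 3, against 1861, 893 and 1443 in the control samples. Sample 1 of each group stood apart by *Xist* (957 and 1080 normalized counts, against 23 to 78 in the other samples) and low Y-linked RNA, so each group held 1 female and 2 male samples by this measure, although the labels give no sex.

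The 10 CM markers exceeded those of the other cell types, with sums of 253611 to 330341 in CtrlCre and 191573 to 226392 in Cpt1bcKO samples, and all 10 had negative log2 differences, 2 of them with an unadjusted *P* below 0.05 (7.22% of all genes were lower at that threshold). The 10 fibroblast markers summed to 1113 to 1472 in CtrlCre and 1863 to 2317 in Cpt1bcKO samples, and all 10 had positive log2 differences, 8 of them with an unadjusted *P* below 0.05 (6.66% of all genes were higher). The collagen gene *Col1a1* and *Lum*, the gene for lumican, passed adjustment (limma adjusted *P* = 0.0143 for both, with 1.57% of all genes called). The 10 endothelial markers summed to 1444, 2713 and 2917 in CtrlCre samples 1, 2 and 3 and to 2543 to 2963 in Cpt1bcKO samples, and all 10 had positive log2 differences (median 0.32), 1 of them with an unadjusted *P* below 0.05. CtrlCre sample 1, which had the low sum and high *Xist*, is also the control sample in every difference between the female samples given below. Pericyte and smooth muscle markers summed to 3962 to 5182 and 2917 to 3337. Of the 8 tested, 3 had positive and 5 negative log2 differences, and 2 were lower at an unadjusted *P* below 0.05. These were *Abcc9* (2839, 2867 and 2839 against 1579, 1597 and 1739), which passed adjustment, and *Acta2* (526, 244 and 391 against 230, 134 and 132). *Abcc9* was the highest marker of this list, and without it the sums overlapped (1123, 1817 and 2343 against 1758, 1575 and 1178). From which cells the *Abcc9* RNA came was not tested, so its difference is not assigned to pericytes or smooth muscle cells. Macrophage and leukocyte markers (10 of 12 listed) summed to 97 to 181 and 143 to 156, and red blood cell markers (2 of 6 listed) to 3 to 20 and 1 to 18. No marker in the table was at 0 in all samples. In bulk RNA, fewer cells of a type and less RNA per cell cannot be told apart, and the part of other cells in the results below was not tested.

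Levels were first compared between members per kilobase of exon, since longer transcripts collect more reads. The length was that of all annotated exons of a gene together, so a gene with long exons that are little used can be ranked too low. *Nfe2l1*, which encodes an NRF2-related factor known for control of proteasome genes, had the highest level in CtrlCre CMs with 491 ± 50.7 normalized counts per kilobase (SD, n = 3). *Gpx4*, the peroxidase for lipid peroxides in membranes, followed with 468 ± 23.1, catalase (*Cat*) with 409 ± 41.9 and *Prdx3*, the peroxiredoxin of the mitochondrial matrix, with 408 ± 54.1. Each of these overlapped its neighbour in the order within the SD. *Prdx1*, a cytosolic peroxiredoxin, came next with 280 ± 11.3. At the other end were *Gss*, the second enzyme of glutathione synthesis, with 5.52 ± 1.13 and *Prdx4*, the peroxiredoxin of the endoplasmic reticulum, with 5.22 ± 1.71, which did not differ beyond their spread. Within roles, *Nqo1*, *Gsr*, *Txn2*, *Glrx3*, *Mgst3* and *Msrb2* were the highest of their kind, with 120, 30.7, 149, 92.4, 231 and 74.1 normalized counts per kilobase in CtrlCre CMs.

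**Figure D1:**
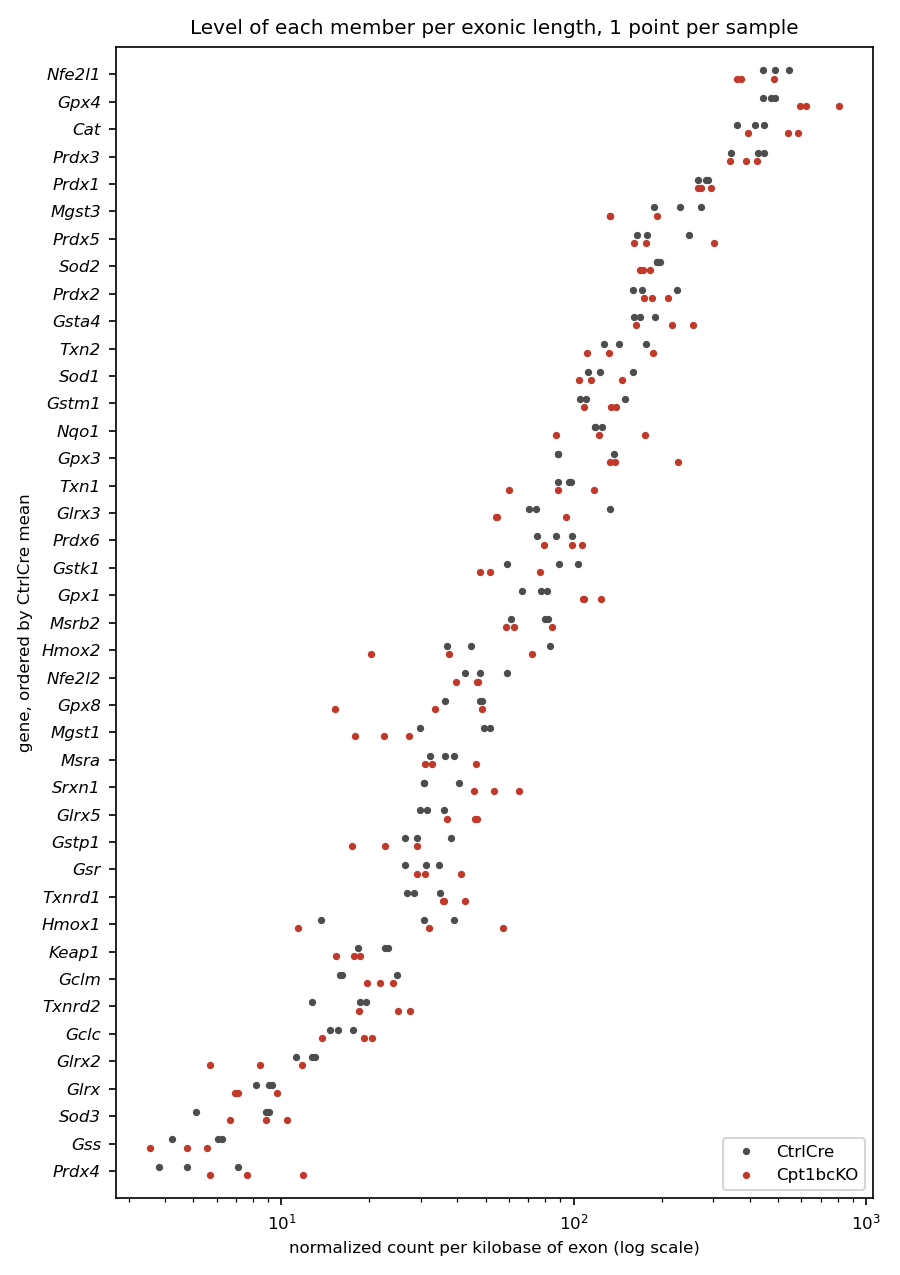
Level of each of the 41 genes as normalized counts per kilobase of exon (x axis, log scale), ordered by the CtrlCre mean, with 1 point for each sample (grey, CtrlCre; red, Cpt1bcKO). CtrlCre means run from 5.22 for *Prdx4* to 491 for *Nfe2l1*, and the points of both groups overlap for most genes.

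The comparison of the genotypes asked whether transcripts of antioxidant defence differ when mitochondrial import of long-chain fatty acids in CMs is impaired. Glutathione peroxidases *Gpx1*, *Gpx3* and *Gpx4*, sulfiredoxin (*Srxn1*) and the mitochondrial glutaredoxin *Glrx5* were higher in Cpt1bcKO CMs at an unadjusted *P* below 0.05, by 1.3 to 1.6 fold. The microsomal glutathione transferases *Mgst1* and *Mgst3* were lower, at 0.53 and 0.66 of the CtrlCre level. The other 34 members did not reach that threshold, among them *Nfe2l2* and *Keap1*. Of the classical NRF2 target genes, *Nqo1*, *Hmox1*, *Gclc*, *Gclm* and *Txnrd1* did not reach it either, whereas *Srxn1* is among the higher genes named above. After adjustment over all genes tested (limma, Benjamini–Hochberg), 0 of the 41 passed 0.05, and the lowest adjusted *P* was 0.156, for *Gpx1*.

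The share of members called was close to that of all genes. An adjusted *P* below 0.05 was reached by 178 of the 11364 genes (1.57%). An unadjusted *P* below 0.05 was reached by 7 of 41 members (17.1%) and by 13.9% of all genes. Higher in Cpt1bcKO CMs were 5 members (12.2%) against 6.66% of all genes, and lower were 2 members (4.88%) against 7.22%. Groups did not overlap for 7 members (17.1%) against 18.7% of all genes, 5 of them higher (background 9.13%) and 2 lower (background 9.6%). The median log2 difference, Cpt1bcKO minus CtrlCre on the log2(normalized count + 1) scale, was 0.018 over the members and -0.0013 over all genes. When 1 sample was left out the median of the members ranged from -0.094, without Cpt1bcKO sample 1, to 0.091, without Cpt1bcKO sample 3, and its sign was negative in 3 of these 6 fits. It was 0.13 when samples were scaled to equal sums without mitochondrial-encoded and rRNA genes, where that of all genes was 0.11. Of the 41 fitted differences 21 were positive and 20 negative. On this scale a change of a gene with low values is understated.

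**Figure D2:**
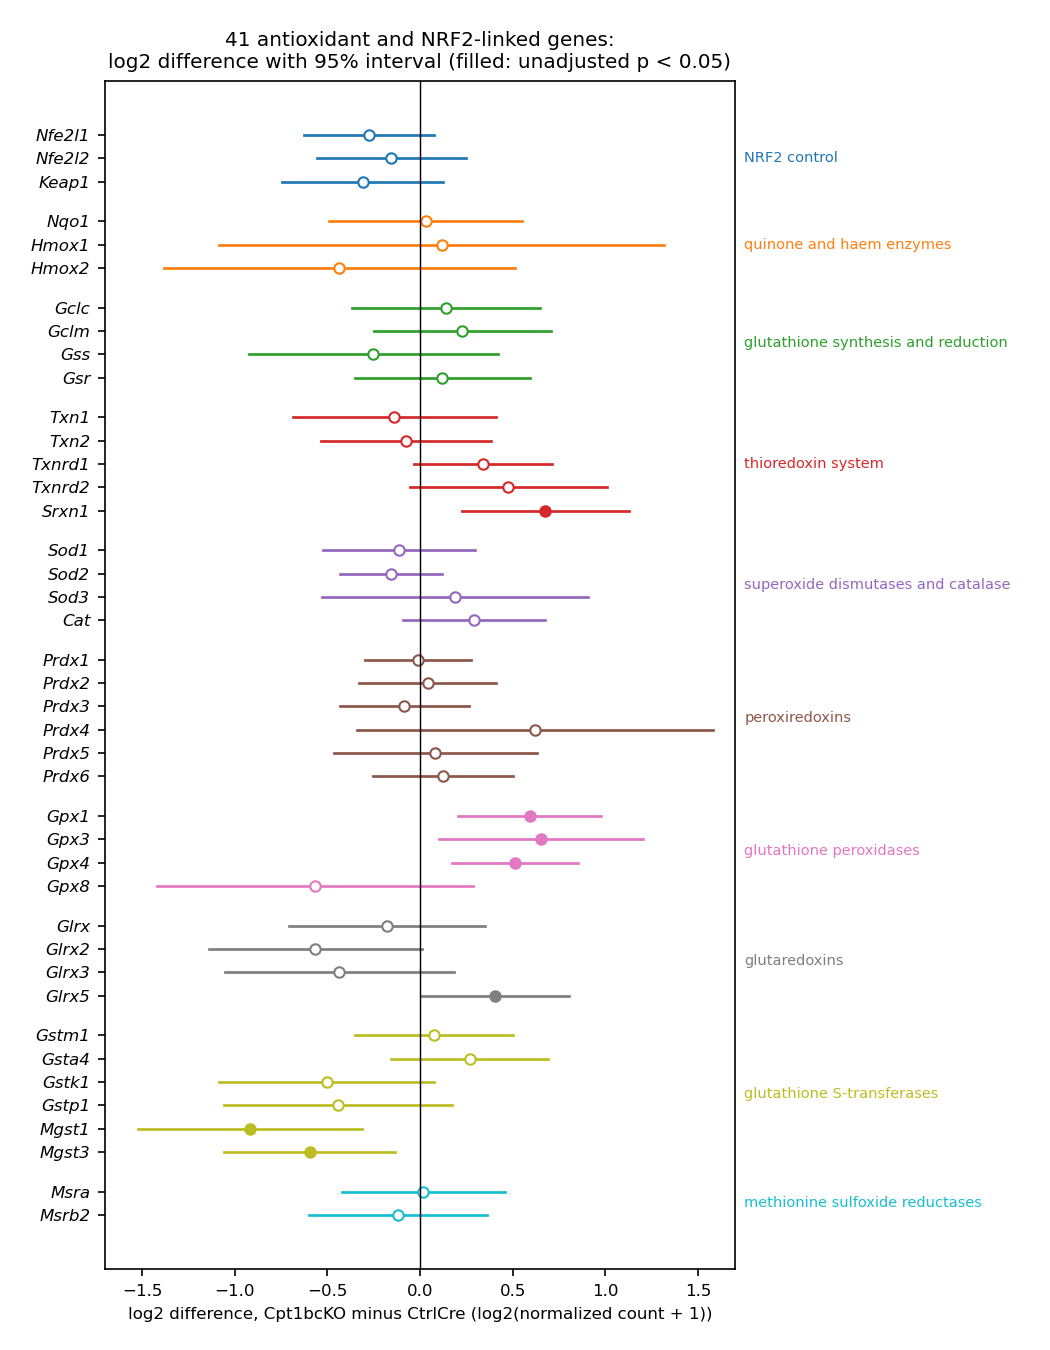
Log2 difference (Cpt1bcKO minus CtrlCre, log2(normalized count + 1)) of the 41 genes by role, with the 95% interval from limma as a line and a filled point where the unadjusted *P* was below 0.05. Filled points lie to the right for *Srxn1*, *Gpx1*, *Gpx3*, *Gpx4* and *Glrx5* and to the left for *Mgst1* and *Mgst3*, and the 3 regulators at the top all have intervals that include 0.

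These counts varied with the samples included. Without Cpt1bcKO sample 1, 13 of the members had an unadjusted *P* below 0.05 (31.7%, against 19.9% of all genes), 5 higher (background 8.95%) and 8 lower (background 10.9%). The number lower was 1 without CtrlCre sample 1 (background 5.06%), without Cpt1bcKO sample 2 (4.88%) and without Cpt1bcKO sample 3 (6.56%). In the fits that left out 1 sample, no member reached an adjusted *P* below 0.05. With sex as a covariate, 4 members did (9.76%, against 5.05% of all genes), namely *Gpx1*, *Gpx3* and *Gpx4* with positive and *Mgst3* with negative differences. At an unadjusted *P* below 0.05, 13 members were called with sex as covariate (31.7%, against 20.8% of all genes), with *Cat* and *Txnrd1* added among the higher and *Nfe2l1*, *Glrx2*, *Glrx3* and *Gstk1* among the lower.

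None of the 3 regulators passed the unadjusted threshold of limma, and all 3 fitted differences were negative. *Nfe2l2* (ENSMUSG00000015839, GRCm38 chromosome 2, 75675513 to 75704641, minus strand) was at 181, 161 and 224 normalized counts in CtrlCre samples 1, 2 and 3 and at 178, 150 and 177 in Cpt1bcKO samples, an order kept below. The groups overlapped, and the log2 difference was -0.15 (95% interval -0.56 to 0.25). When 1 sample was left out it ranged from -0.26, without CtrlCre sample 2, to -0.02, without CtrlCre sample 3. *Keap1*, the NRF2 repressor, was at 109, 86 and 106 against 87, 72 and 83. Only the highest Cpt1bcKO value reached into the CtrlCre range, and the log2 difference was -0.31 (95% interval -0.74 to 0.13, limma adjusted *P* = 0.530). *Nfe2l1* was at 2960, 2410 and 2649 against 2645, 1974 and 2036, with Cpt1bcKO sample 1 inside the CtrlCre range and a log2 difference of -0.28 (95% interval -0.63 to 0.07, limma adjusted *P* = 0.469). Its unadjusted *P* was below 0.05 with sex as covariate, with a block for the replicate number and without Cpt1bcKO sample 1. The adjusted *P* values were 0.147, 0.149 and 0.153 (limma, range over all alternatives 0.147 to 0.806). RNA levels do not report NRF2 activity, which is set mainly by protein stability. An exon of the predicted gene *Gm16754* lies on the opposite strand of *Keap1*, and, since reads on several genes were left out, reads from the shared stretch are missing from *Keap1* if strand was not used in counting, which the sources used here do not state.

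The promoters of the members were searched for the core of the antioxidant response element, TGACNNNGC on either strand (GCNNNGTCA on the complementary one), in RefSeq windows from 250 bases before to 50 bases after each gene start (GRCm38.p6). Windows were given for 34 of the 41 members. The letters were present in 8 of 51 member windows (15.7%) and in 4071 of 32851 windows of all genes (12.4%). Counted by gene, they were present in 8 of 34 members (23.5%) and in 1815 of 10556 genes of the deposited table with a window (17.2%). The 8 stretches are shown because they hold this match of letters in the windows of *Nfe2l2* itself and of members whose values follow. Matching letters are in capitals, and the sequence runs 5′ to 3′ on the strand of the gene.
*Nfe2l2*, chr2:75704885-75704913, minus strand: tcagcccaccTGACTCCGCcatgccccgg
*Srxn1*, chr2:152105542-152105570, plus strand: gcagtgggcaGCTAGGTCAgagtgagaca
*Gclm*, chr3:122245413-122245441, plus strand: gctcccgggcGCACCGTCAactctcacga
*Txnrd1*, chr10:82859104-82859132, plus strand: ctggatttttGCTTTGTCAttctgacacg
*Prdx1*, chr4:116685456-116685484, plus strand: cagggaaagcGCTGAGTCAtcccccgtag
*Sod1*, chr16:90220696-90220724, plus strand: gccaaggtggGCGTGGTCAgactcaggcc
*Mgst1*, chr6:138140461-138140489, plus strand: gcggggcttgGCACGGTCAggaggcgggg
*Msrb2*, chr2:19371665-19371685, plus strand: cccgttggtgGCAGCGTCAtg

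The *Prdx1* stretch also holds the AP-1 pattern TGANTCA, which shares letters with the element. The gene starts of the windows are those of RefSeq, and they can differ from the starts in GENCODE vM21. Counted from 0 at the RefSeq start, the first matching base lay at -240 in *Nfe2l2*, 28 in *Srxn1*, -134 in *Gclm*, -92 in *Txnrd1*, -133 in *Prdx1*, -56 in *Sod1* and *Mgst1*, and 39 in *Msrb2*. The stretches of *Srxn1* and *Msrb2* thus lie past the RefSeq start. Those of *Txnrd1* and *Mgst1* lie before it, but inside the genes as given in GENCODE vM21, where these start at 82833951 and 138140316. Of these 8 genes, *Srxn1* was higher and *Mgst1* lower in Cpt1bcKO CMs at an unadjusted *P* below 0.05, and the other 6 did not reach it, against 13.9% of all genes called in either direction. Enhancers farther from the gene start were not searched, and a match of letters is no evidence of binding.

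The enzymes of quinone and haem handling had no member past the threshold. *Nqo1*, a quinone reductase and classical NRF2 target, was at 183, 184 and 194 against 272, 190 and 135. The CtrlCre samples were close together, whereas the Cpt1bcKO samples lay on both sides of them, and the log2 difference was 0.03 (95% interval -0.49 to 0.55). *Hmox1*, the inducible haem oxygenase, was at 54, 68 and 24 against 100, 20 and 56. This wide scatter left an interval of -1.08 to 1.32, so a log2 difference of 1 in either direction was not excluded. *Hmox2*, the constitutive haem oxygenase, was at 82 to 184 and 45 to 160 with a log2 difference of -0.43, and 36.8% of its 75-base windows are shared with other genes, mainly *Cdip1* on the opposite strand.

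In glutathione synthesis and reduction, 3 of 4 fitted differences were positive and 0 passed the unadjusted threshold. *Gclc*, the catalytic subunit of the rate-limiting glutamate–cysteine ligase, was at 59, 66 and 55 against 72, 77 and 52, with a log2 difference of 0.14. *Gclm*, its modifier subunit, was at 100, 156 and 101 against 151, 123 and 137, with a log2 difference of 0.23 (95% interval -0.25 to 0.71). Cpt1bcKO samples lay between the extremes of the CtrlCre samples for *Gclm*. *Gsr*, the reductase that regenerates glutathione with NADPH, was at 95, 86 and 73 against 80, 113 and 85 and had a log2 difference of 0.12. *Gss* spanned 25 to 37 in CtrlCre and 21 to 33 in Cpt1bcKO samples (log2 difference -0.25).

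Within the thioredoxin system, sulfiredoxin passed the unadjusted threshold, whereas the reductases and the thioredoxins did not. When samples were scaled to equal sums without mitochondrial-encoded and rRNA genes, the reductases *Txnrd1* and *Txnrd2* were below an unadjusted *P* of 0.05 as well. Over the 15 alternatives, this one included, the same was found in 4 for *Txnrd1* and in 2 for *Txnrd2*. *Srxn1* (ENSMUSG00000032802, plus strand of chromosome 2 from 152105524 to 152111376) encodes sulfiredoxin, which repairs overoxidized peroxiredoxins. It was at 87, 114 and 87 normalized counts in CtrlCre and 183, 151 and 129 in Cpt1bcKO samples. All Cpt1bcKO samples were above all CtrlCre samples, and the log2 difference was 0.68 (SE 0.204, limma adjusted *P* = 0.162). It was 1.06 between the female samples and 0.48 between the male samples.

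*Txnrd1*, the cytosolic thioredoxin reductase, was at 201, 248 and 190 against 301, 254 and 252. Groups did not overlap, although CtrlCre sample 2 came close, and the log2 difference of 0.34 did not pass the test (SE 0.169, limma adjusted *P* = 0.406). *Txnrd2*, its mitochondrial counterpart, was at 86, 82 and 56 against 81, 121 and 110, with a log2 difference of 0.48 (limma adjusted *P* = 0.410). That value ranged from 0.29 to 0.65 when 1 sample was left out. The female samples did not share the difference of *Txnrd2* (log2 difference -0.09), which was 0.76 in the male samples. *Txn2*, the mitochondrial thioredoxin, was at 743, 603 and 536 against 788, 556 and 467. In both groups the female sample was the highest, and the log2 difference of -0.08 turned to 0.03 under equal sums. *Txn1*, the cytosolic form, spanned 93 to 103 in CtrlCre and 63 to 123 in Cpt1bcKO samples (log2 difference -0.14).

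Superoxide dismutases and catalase gave no call. *Sod2*, the manganese enzyme of the mitochondrial matrix (plus strand of chromosome 17 from 13007839 to 13018119), was at 1972, 1935 and 1922 against 1819, 1729 and 1685. The groups did not overlap, but the log2 difference was only -0.16 (SE 0.124, limma adjusted *P* = 0.624), a decrease to 0.90 of the CtrlCre level, and under equal sums no member was lower without overlap. *Cat*, the hydrogen peroxide-splitting catalase, was at 1165, 1089 and 949 against 1525, 1410 and 1029. Cpt1bcKO samples 1 and 2 exceeded all CtrlCre samples and sample 3 did not, and the log2 difference was 0.29 (SE 0.172, limma adjusted *P* = 0.485). It was 0.18 without Cpt1bcKO sample 1 and 0.46 without Cpt1bcKO sample 3, and the unadjusted *P* was below 0.05 in 4 of 15 alternatives, equal sums among them. *Sod1*, the cytosolic copper–zinc enzyme, spanned 444 to 633 and 414 to 580 (log2 difference -0.11), and *Sod3*, the extracellular one, 19 to 34 and 25 to 39 (log2 difference 0.19).

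None of the 6 peroxiredoxins passed the unadjusted threshold of limma. *Prdx3* was at 633, 663 and 512 normalized counts in CtrlCre and 624, 572 and 505 in Cpt1bcKO samples, with overlapping groups and a log2 difference of -0.08 (95% interval -0.43 to 0.26). *Prdx1* spanned 812 to 877 against 810 to 895, a log2 difference of -0.01 with the narrow interval of -0.30 to 0.27. Equal sums changed the sign of both, to 0.03 for *Prdx3* and 0.10 for *Prdx1*. *Prdx2*, *Prdx5* and *Prdx6* had log2 differences of 0.04, 0.08 and 0.12. *Prdx4* spanned 8 to 15 and 12 to 25 normalized counts, too few for a firm statement (log2 difference 0.62, 95% interval -0.34 to 1.58). Exons of *Junb* and *Rnaseh2a* overlap *Prdx2*, and of *Trmt112* overlap *Prdx5*, on the opposite strand.

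Of the 4 glutathione peroxidases, 3 were higher in Cpt1bcKO CMs at an unadjusted *P* below 0.05 (6.66% of all genes were), and the median log2 difference of the 4 was 0.55 (all genes -0.0013). *Gpx1* (ENSMUSG00000063856, plus strand of chromosome 9 from 108339054 to 108340343), the abundant cytosolic and mitochondrial peroxidase for hydrogen peroxide, was at 117, 96 and 111 in CtrlCre and 178, 156 and 155 in Cpt1bcKO samples. Each Cpt1bcKO sample was above each CtrlCre sample, at 1.51-fold the CtrlCre level. The log2 difference was 0.59 (SE 0.174, limma adjusted *P* = 0.156), with 0.60 between the female and 0.59 between the male samples. With sex as covariate the adjusted *P* was 0.0497, and over all alternatives it ranged from 0.0497 to 0.389.

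*Gpx4* (ENSMUSG00000075706, plus strand of chromosome 10 from 80053488 to 80056439) guards membranes against lipid peroxidation and ferroptosis. It was at 844, 813 and 765 against 1391, 1076 and 1022, so that the groups were separated by 178 normalized counts. The female Cpt1bcKO sample was the highest. The log2 difference was 0.51 (SE 0.153, limma adjusted *P* = 0.159), with 0.72 between the female and 0.41 between the male samples. Sex as covariate gave an adjusted *P* of 0.0248 (range over all alternatives 0.0248 to 0.382). Of its 75-base windows 29.8% recur elsewhere, mainly in the pseudogene *Gpx4-ps2*, and reads that align to several places were left out by the authors in all samples.

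*Gpx3* (ENSMUSG00000018339, plus strand of chromosome 11 from 54902772 to 54910377), the secreted peroxidase, was at 248, 160 and 160 against 411, 241 and 251. The groups overlapped because the female CtrlCre sample was slightly above the male Cpt1bcKO sample 2, whereas within each sex Cpt1bcKO was higher. The log2 difference was 0.65 (SE 0.248, limma adjusted *P* = 0.267), with 0.73 between the female and 0.62 between the male samples. When 1 sample was left out it ranged from 0.41, without Cpt1bcKO sample 1, to 0.86, without CtrlCre sample 1. Sex as covariate gave an adjusted *P* of 0.0146 (range over all alternatives 0.0146 to 0.508), and the unadjusted *P* was above 0.05 without CtrlCre sample 2, without CtrlCre sample 3, without Cpt1bcKO sample 1 and with 1 prior variance for all genes. *Gpx8*, a peroxidase of the endoplasmic reticulum, was at 51, 38 and 50 against 51, 35 and 16 (log2 difference -0.57, limma adjusted *P* = 0.563). Only Cpt1bcKO sample 3 was far below the CtrlCre samples, and without it the log2 difference was -0.12. In that sample 6 of the whole numbers from 1 to 25 never occur, against 0 in the other samples, so low values are coarser there. The fibroblast marker sum was also higher in every Cpt1bcKO sample than in every CtrlCre sample, which holds for the 5 members *Txnrd1*, *Srxn1*, *Gpx1*, *Gpx4* and *Glrx5* as well.

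**Figure D3:**
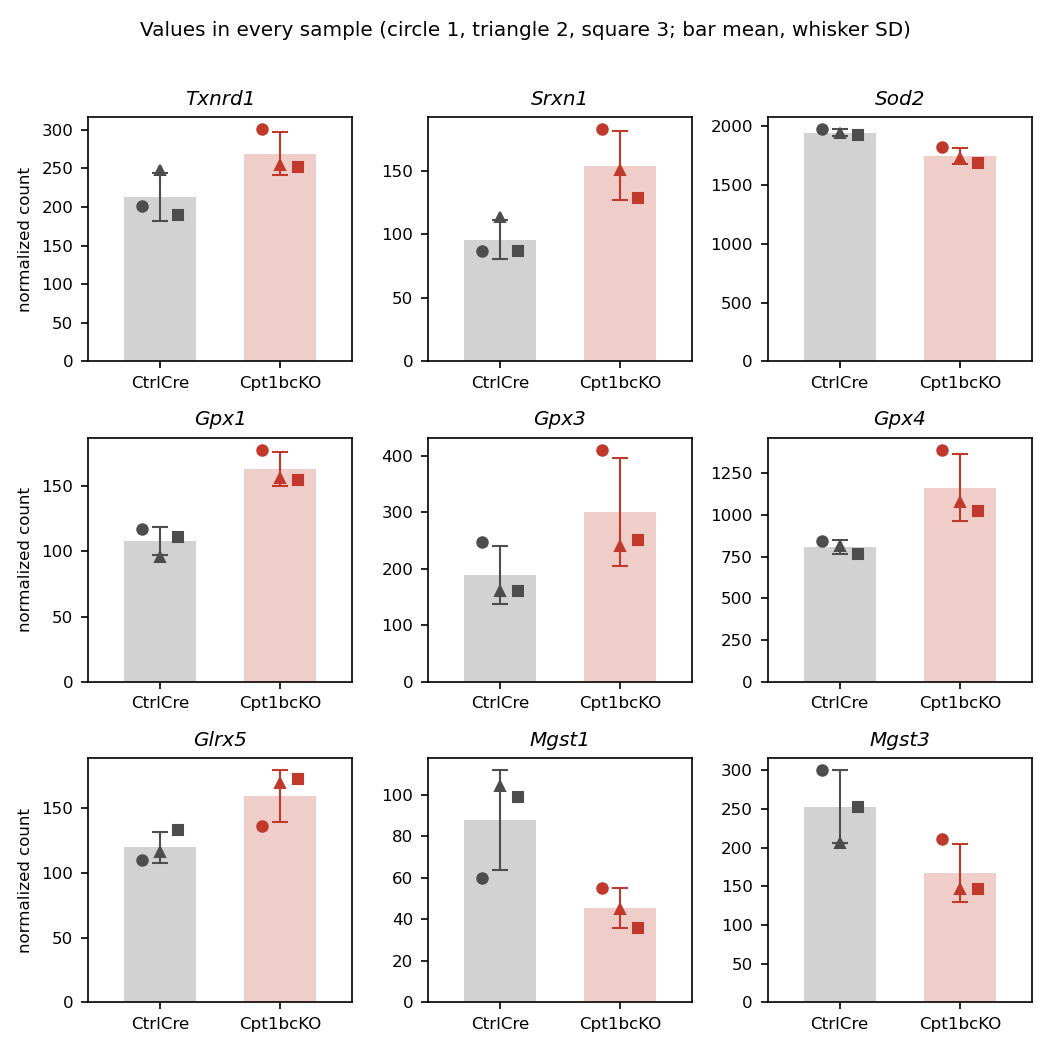
Normalized counts of the 9 genes with an unadjusted *P* below 0.05 or without overlap of the groups, for each sample (circle, triangle and square for samples 1, 2 and 3), with bars for the mean and whiskers for the SD. Circles, the samples with high *Xist*, are the highest in the Cpt1bcKO group for every gene shown except *Glrx5*. Among the 9 genes, *Sod2* has the log2 difference of the smallest size (-0.16).

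Of the 4 glutaredoxins, 1 was higher at an unadjusted *P* below 0.05 (6.66% of all genes were) and the other 3 had negative log2 differences. *Glrx5* (ENSMUSG00000021102, plus strand of chromosome 12 from 105032688 to 105042906), which carries iron–sulfur clusters in mitochondria, was at 110, 116 and 133 against 136, 169 and 172. The groups were separated by 3 normalized counts, and the log2 difference was 0.40 (SE 0.181, limma adjusted *P* = 0.355). Its unadjusted *P* was below 0.05 in 7 of 15 alternatives. *Glrx3*, a cytosolic glutaredoxin of iron handling, was at 666, 352 and 373 against 471, 275 and 272. Female samples were the highest in both groups, and the log2 difference was -0.44 (SE 0.278, limma adjusted *P* = 0.532). It was -0.14 without CtrlCre sample 1 and -0.70 without Cpt1bcKO sample 1, and sex as covariate gave an adjusted *P* of 0.0540 (range over all alternatives 0.0540 to 0.895). *Glrx2*, the second mitochondrial member, spanned 98 to 114 and 50 to 103 (log2 difference -0.56, limma adjusted *P* = 0.368). Its log2 difference was -0.30 without Cpt1bcKO sample 3 and -0.81 without Cpt1bcKO sample 1, with -0.15 between the female and -0.77 between the male samples. *Glrx* spanned 45 to 51 and 38 to 53 (log2 difference -0.18).

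Of the 6 glutathione S-transferases, 2 were lower in Cpt1bcKO CMs at an unadjusted *P* below 0.05 (7.22% of all genes were) and 0 higher. The median log2 difference was -0.47 (all genes -0.0013). When 1 sample was left out this median ranged from -0.67, without Cpt1bcKO sample 1, to -0.31, without CtrlCre sample 1. *Mgst1* (ENSMUSG00000008540, plus strand of chromosome 6 from 138140316 to 138156755), a membrane-bound transferase of endoplasmic reticulum and outer mitochondrial membrane, was at 60, 104 and 99 in CtrlCre and 55, 45 and 36 in Cpt1bcKO samples. The groups did not overlap as deposited but did under equal sums, and the female samples differed by only 5 normalized counts. The log2 difference was -0.92 (SE 0.273, limma adjusted *P* = 0.159), the largest in size among the members, with -0.12 between the female and -1.31 between the male samples. *Mgst3* (ENSMUSG00000026688, minus strand of chromosome 1 from 167371966 to 167393841), a related membrane protein with peroxidase activity, was at 300, 206 and 253 against 211, 146 and 146. The female Cpt1bcKO sample lay just above the lowest CtrlCre sample, so that the groups overlapped.

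For *Mgst3* the log2 difference was -0.60 (SE 0.208, limma adjusted *P* = 0.224), with -0.51 between the female and -0.64 between the male samples. Sex as covariate gave an adjusted *P* of 0.0375 (range over all alternatives 0.0375 to 0.605), and the unadjusted *P* was above 0.05 without CtrlCre sample 1, without Cpt1bcKO sample 2 and without Cpt1bcKO sample 3. Of the soluble transferases, *Gstk1*, found in mitochondria and peroxisomes, spanned 87 to 152 and 70 to 113 (log2 difference -0.50, limma adjusted *P* = 0.426). Its log2 difference ranged from -0.73 to -0.34 when 1 sample was left out. *Gstp1* spanned 41 to 59 and 27 to 45 (log2 difference -0.44), and 29.2% of its windows are shared, mainly with its neighbour *Gstp2*. *Gsta4*, which conjugates the lipid peroxidation product 4-hydroxynonenal, spanned 204 to 241 and 207 to 325 with a log2 difference of 0.27. *Gstm1* had a log2 difference of 0.07. The CM marker sum was, like *Mgst1* and *Sod2*, lower in every Cpt1bcKO sample than in every CtrlCre sample. The same held for the pericyte and smooth muscle marker sum with *Abcc9*, whereas without it the sums overlapped (1123, 1817 and 2343 against 1758, 1575 and 1178).

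Methionine sulfoxide reductases, which repair oxidized methionine, gave no call. *Msrb2*, the mitochondrial enzyme for the R form, was at 110, 84 and 112 against 86, 81 and 116, with overlapping groups and a log2 difference of -0.12 (95% interval -0.60 to 0.36). *Msra*, the enzyme for the S form, spanned 138 to 167 and 133 to 199 (log2 difference 0.02).

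By cell compartment, 29 members were placed in 1 list each, with *Gpx1* counted as cytosolic although it is also mitochondrial. The other 12 were placed in none, *Gpx4*, *Mgst1*, *Mgst3* and *Gstk1* among them. The 8 members listed as mitochondrial had a median log2 difference of -0.08, with 1 at an unadjusted *P* below 0.05 (*Glrx5*). The 17 listed as cytosolic had a median of 0.04, with *Srxn1* and *Gpx1* past that threshold, and the 4 members of the secretory pathway or extracellular space had a median of 0.41, with *Gpx3* past it. These 4 had log2 differences of 0.65 (*Gpx3*), 0.62 (*Prdx4*), 0.19 (*Sod3*) and -0.57 (*Gpx8*), and only the interval of *Gpx3* excluded 0. *Prdx4* and *Sod3* had low values, at most 25 and 39 normalized counts. The medians and calls of the 3 lists stand beside a median of -0.0013 and 13.9% called for all genes and carry no test. Intervals of 28 members lay within 1 log2 unit of 0, and those of the other 13 reached beyond. Of these 13, 4 excluded 0 (*Srxn1*, *Gpx3*, *Mgst1* and *Mgst3*) and 9 included it, so a difference of that size was neither shown nor excluded for the 9.

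**Figure D4:**
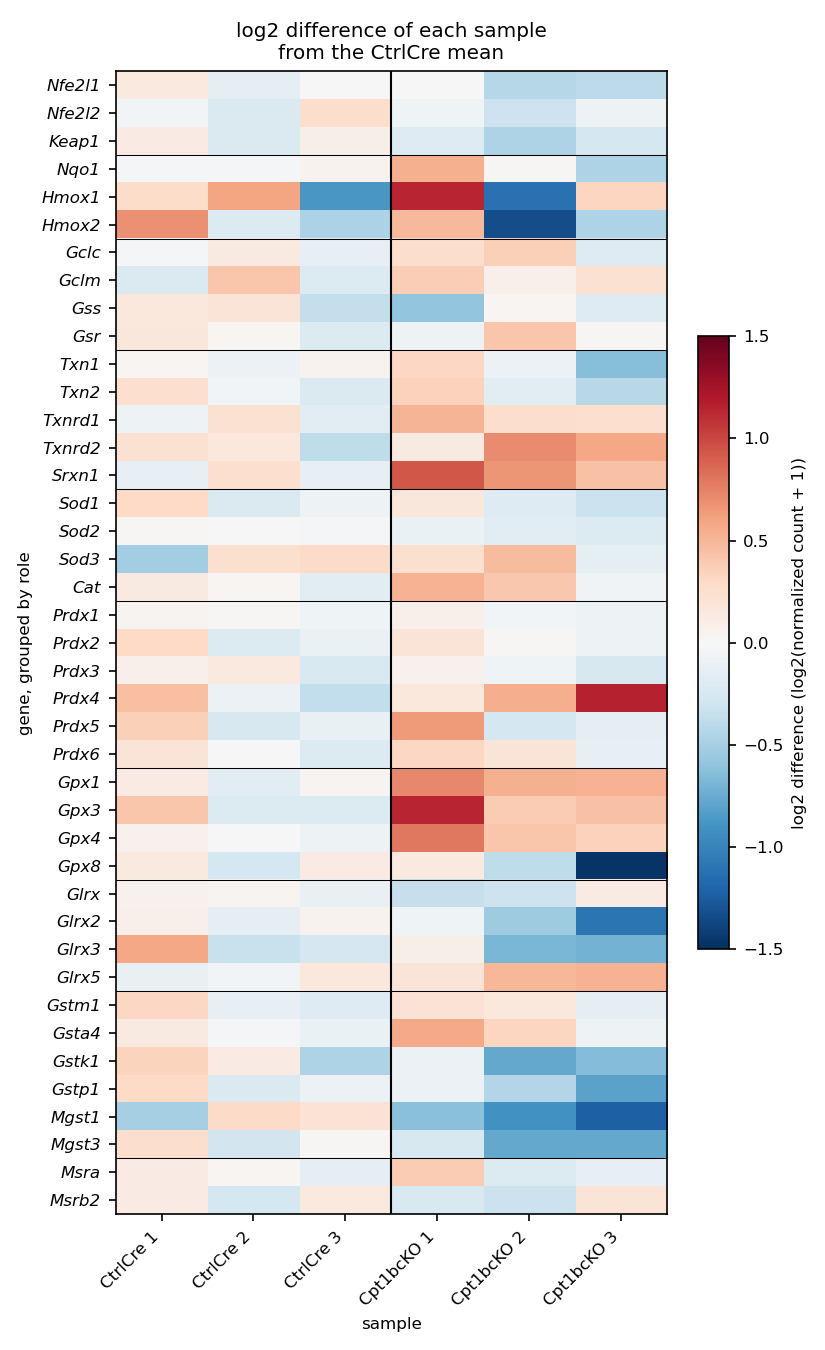
Log2 difference of each sample (columns) from the CtrlCre mean for the 41 genes (rows, grouped by role), on the log2(normalized count + 1) scale (red, higher; blue, lower). *Gpx1*, *Gpx3*, *Gpx4* and *Srxn1* are red in all 3 Cpt1bcKO columns, whereas the column of Cpt1bcKO sample 1 is redder than those of samples 2 and 3 for 32 of the genes.

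Samples with high *Xist* were the highest of their group for 27 of the 41 members in CtrlCre and for 32 of 41 in Cpt1bcKO. The members together made up 0.442%, 0.392% and 0.388% of the sum without mitochondrial-encoded and rRNA genes in CtrlCre samples and 0.526%, 0.418% and 0.379% in Cpt1bcKO samples, so that the female samples had the highest shares and the groups overlapped. The mean log2 difference from CtrlCre over the 4 glutathione peroxidases was 0.70, 0.24 and -0.04 in Cpt1bcKO samples 1, 2 and 3, against 0.19, -0.16 and -0.03 in the CtrlCre samples. Sample 3 thus lay within the CtrlCre range and sample 2 just above it, and the low *Gpx8* of sample 3 enters its value. Over the 6 glutathione S-transferases it was -0.04, -0.40 and -0.61. For the transferases, Cpt1bcKO samples 2 and 3 lay below all CtrlCre samples, which were at 0.14, -0.04 and -0.10.

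Genes around the pathway were listed by role, with the same background of 13.9% at an unadjusted *P* below 0.05. Of 10 partners and repressors of NRF2, 1 was lower, and it was *Cul3*, the scaffold of the ligase that KEAP1 recruits. *Cul3* was at 1527, 1632 and 1659 against 1226, 1070 and 1191, with no overlap and a log2 difference of -0.47 (SE 0.130, limma adjusted *P* = 0.129). With sex as covariate its adjusted *P* was 0.0303, and when 1 sample was left out it ranged from 0.0817 to 0.476. Of 17 further NRF2 target genes 13 were tested, and 2 were higher. *Aox1*, aldehyde oxidase, was at 192, 276 and 147 against 327, 431 and 436 (log2 difference 0.99, limma adjusted *P* = 0.0687). Its adjusted *P* was 0.0214 with sex as covariate and 0.0427 with equal sums, and when 1 sample was left out it ranged from 0.0349 to 0.308. *Ftl1*, the light chain of ferritin, was at 35, 49 and 16 against 62, 61 and 60 (log2 difference 0.99, limma adjusted *P* = 0.25), and 51.3% of its windows are shared with pseudogenes. When 1 sample was left out its log2 difference ranged from 0.55, without CtrlCre sample 3, to 1.33, without CtrlCre sample 2.

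All 11 genes of NADPH supply were tested, and 2 were higher and 1 lower at an unadjusted *P* below 0.05. *Tkt*, transketolase of the pentose phosphate pathway, was at 22, 31 and 29 against 50, 36 and 48 (log2 difference 0.69), and *Nadk2*, the mitochondrial NAD kinase, was at 365, 362 and 331 against 303, 249 and 204 (log2 difference -0.50). Both had groups without overlap and adjusted *P* values of 0.286 and 0.224 (limma). The other, named after its values were seen, was *Me1*, cytosolic malic enzyme, with a log2 difference of 0.52. *Me1* was at 550, 511 and 372 against 887, 707 and 493, so that the groups overlapped. Its log2 difference ranged from 0.33 to 0.75 when 1 sample was left out, and 20.0% of its windows are shared. Of 26 further glutathione transferases and turnover enzymes only 12 were tested, and 1 was lower, the glutathione-degrading *Chac2*. It was at 107, 95 and 112 against 80, 85 and 49 (log2 difference -0.58, limma adjusted *P* = 0.308). The difference ranged from -0.73 to -0.34 when 1 sample was left out.

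Adjusted calls were found in the remaining lists. Of 17 tested of 18 other thiol and peroxide enzymes, 1 was higher and 3 lower at an unadjusted *P* below 0.05, and *Tmx1*, a thioredoxin-related protein of the endoplasmic reticulum membrane, passed adjustment. *Tmx1* was at 1028, 991 and 853 against 364, 380 and 474. The highest Cpt1bcKO sample was far below the lowest CtrlCre sample, and the log2 difference was -1.24 (SE 0.156, limma adjusted *P* = 0.0039). It ranged from -1.36 to -1.17 when 1 sample was left out, with adjusted *P* values of 0.0050 to 0.0437. The other 3, named after their values were seen, were *Txnrd3* (log2 difference 0.79), *Txnip* (-0.61) and *Oxr1* (-0.41). *Txnip* was at 3251, 2329 and 1322 against 1579, 1443 and 1228, so that the groups overlapped, and its log2 difference ranged from -0.97 to -0.32 when 1 sample was left out, the latter without CtrlCre sample 1. Of 13 NADPH oxidase subunits and other oxidase sources 4 were tested, and *Maob*, the peroxide-producing monoamine oxidase B of the outer mitochondrial membrane, fell from 126, 91 and 89 to 16, 17 and 28. Its log2 difference was -2.30 (SE 0.285, limma adjusted *P* = 0.0039), with adjusted *P* values of 0.0037 to 0.0342 when 1 sample was left out. *Maoa*, its paralogue, was higher at an unadjusted *P* below 0.05 (log2 difference 0.88), also named after its values were seen.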

How the data were processed

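RNA of isolated adult CMs from 3 CtrlCre and 3 Cpt1bcKO samples was measured by RNA-seq (stranded total RNA library, single-end reads). Per the submitters' processing notes and the methods, reads were trimmed with Trimmomatic (0.36), aligned to mm10 (GRCm38.p5) with STAR (2.5.4b) and counted on exons with featureCounts (1.6.0), leaving out reads on several genes or places. The annotation release and the use of strand in counting are not given in the sources used here. The deposited values were treated as a score, namely counts that the authors divided by DESeq2 size factors and rounded to whole numbers. Raw counts were not recovered, so no count model was used, and the number of reads behind a value is not known. Columns of the authors' own comparison (fold changes and *P* values) were not used.

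Values were transformed to log2(value + 1) and tested with limma (3.58.1 in R 4.3.3; lmFit, eBayes with trend, two-sided) in genes that reached 10 in 3 or more samples. *P* values were adjusted by Benjamini–Hochberg over all 11364 genes tested. The steps were tested on simulated data. An exact permutation test of 3 against 3 samples cannot go below 0.1 and was not used. Members, lists and tests were chosen with earlier results of these data known. Values in every sample are given for members with an unadjusted *P* below 0.05 or without overlap of the groups, for *Nfe2l1*, *Nfe2l2* and *Keap1*, for *Nqo1*, *Hmox1*, *Gclc*, *Gclm*, *Txnrd1* and *Srxn1*, and for the highest member per kilobase in each role. Genes of other lists are named if their adjusted *P* was below 0.05, or otherwise the 2 with the lowest unadjusted *P* below 0.05. Exon lengths, overlaps and shared 75-base windows are from GENCODE vM21, in which 25 of 41 members have the start and end of the deposited table, and promoter sequences are from RefSeq (GRCm38.p6). Sex was read from *Xist* and Y-linked genes. Alternatives were other pseudocounts (0.5 and 5), filters, scalings, a replicate block, sex as covariate, no trend, and leaving out each sample. Python 3.11.15 (pandas 2.3.3, matplotlib 3.10.9) was used for tables and plots.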

Additional observations from a re-analysis of the deposited data

How the results depend on the processing

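No member reached an adjusted *P* below 0.05 (limma) under other pseudocounts, filters, scalings, a single prior variance or when 1 sample was left out. With sex as covariate 3 were higher and 1 lower. Replicate numbers were not treated as pairs in the main fit, since the methods of the study state no covariate. Deviations from the group means correlated at 0.376, 0.255 and 0.068 between samples numbered 1, 2 and 3. The mean correlation was 0.23 for the same number and -0.11 for different numbers. Samples numbered 1 are also the female samples of both groups, so number and sex cannot be fully told apart. With the replicate block, 2 members (*Gpx3*, *Gpx4*) were higher and 1 (*Mgst3*) lower after adjustment (603 of all genes, 5.31%). At an unadjusted *P* below 0.05, 6 of 41 (14.6%) were lower with the replicate block and 6 with sex as covariate (11.3% of all genes in both), 8 (19.5%) were higher with equal sums (10.8% of all genes), and 3 (7.32%) were higher without a trend of the prior variance (6.91% of all genes). The cause of these changes was not tested. *Gpx1*, *Gpx4*, *Srxn1* and *Mgst1* stayed below an unadjusted *P* of 0.05 in all 15 alternatives.

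Equal sums without mitochondrial-encoded and rRNA genes moved the median of all genes to 0.11, and 0 members were then lower without overlap (5.85% of all genes). The median of all genes was 0.023 without a filter and -0.019 with at least 10 in every sample, where *Prdx4* had no value. Leaving out 1 sample gave 1 to 8 members lower at an unadjusted *P* below 0.05, 5 to 8 higher and 2 to 10 lower without overlap, and a glutaredoxin median of -0.40 to -0.14. With fewer samples, groups separate more often among all genes too. The 10 lower (24.4%, against 19.9% of all genes) and the 8 lower by *P* (19.5% against 10.9%) came without Cpt1bcKO sample 1, and 7 (17.1% against 14.7%) and 5 (12.2% against 13.6%) without CtrlCre samples 2 and 3. The 8 higher (19.5%) came without CtrlCre sample 1 (13.5% of all genes) and without Cpt1bcKO sample 3 (13.4%).

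Signs changed in 24 of 614 member values, in 14 members whose lowest *P* was 0.332. Equal sums gave 0.035 for *Txn2*, 0.10 for *Prdx1* and 0.027 for *Prdx3*. When 1 sample was left out, log2 differences ranged from -0.22 to 0.28 for *Nqo1*, -0.40 to 0.73 for *Hmox1*, -0.89 to 0.012 for *Hmox2*, -0.029 to 0.22 for *Gsr*, -0.37 to 0.11 for *Txn1*, -0.29 to 0.091 for *Txn2*, -0.25 to 0.033 for *Sod1*, -0.072 to 0.36 for *Sod3*, -0.055 to 0.017 for *Prdx1*, -0.058 to 0.19 for *Prdx2*, -0.20 to 0.26 for *Prdx5*, -0.019 to 0.23 for *Gstm1* and -0.16 to 0.13 for *Msra*.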

Other observations

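Several members contain selenocysteine, and these were looked at together after their values had been seen. *Gpx1*, *Gpx3*, *Gpx4*, *Txnrd1* and *Txnrd2* encode selenoproteins, and all 5 had positive log2 differences (median 0.51). An unadjusted *P* below 0.05 was found for 3 of them (limma, 13.9% of all genes), and 0 passed adjustment (1.57% of all genes). With sex as covariate *Gpx1*, *Gpx3* and *Gpx4* passed adjustment (5.05% of all genes). Of 18 selenoproteins that are not members 15 were tested, and 7 had positive and 8 negative log2 differences (median -0.16). Past an unadjusted *P* of 0.05 were *Txnrd3*, a thioredoxin reductase, at 47, 30 and 35 in CtrlCre and 75, 53 and 67 in Cpt1bcKO samples, and *Dio2*, the deiodinase that activates thyroid hormone, at 5, 7 and 5 against 16, 18 and 10. *Dio2* had low values and met the filter of 10 in 3 samples only through its Cpt1bcKO samples, so its call carries no weight. None of the 6 genes tested for selenocysteine insertion had an unadjusted *P* below 0.05 (limma). The lists were chosen with these values known and carry no test.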
